A study of Mus musculus with 24 samples.

Results

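Epithelial RNA from the ileum of mice labelled KO, labelled as taken 2 weeks after chimerism (4 mice, numbers 100, 117, 118 and 120), was compared with ileal epithelial RNA from all wild-type (WT) mice of the series as 1 group (5 mice). The WT group joined 2 irradiated mice sampled at 8 weeks (59 and 61) and 3 mice that were neither irradiated nor treated (72, 73 and 75). These 9 libraries were chosen by their column labels, from 24 libraries of ileum and colon of 12 mice, and all genes were considered. Of 24421 genes in the table, 19010 had at least 10 normalised reads in at least 2 of the 9 libraries and were tested. All mice were C57BL/6 and 8 to 14 weeks old, and cells were sorted as positive for a tomato reporter under Villin, a brush border protein of the intestinal epithelium, and negative for CD45, the pan-leukocyte antigen. The labels name no deleted gene beyond KO. The series title concerns gut macrophages that lack the IL-10 receptor alpha chain. In a chimera made by irradiation and transfer of blood-forming cells, macrophages derive from the donor and the epithelium from the host. No WT chimera at 2 weeks was in the design, so the KO label cannot be told apart from the time since chimerism. For ileum the series also holds 3 KO mice at 8 weeks (49, 50 and 57), which are set beside the results where they bear on them. Each ileum library carried its own mouse number, and p-values of comparisons within ileum measure the spread between these mice.

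The ileal epithelium renews itself from stem cells at the crypt base. Their progeny become absorptive enterocytes, which take up nutrients and bile acids, or secretory cells: Paneth cells that release lysozyme and alpha-defensins into the crypt, goblet cells that make mucus, enteroendocrine cells that release hormones, and tuft cells. Macrophages that cannot sense IL-10 make IL-23, which drives IL-22 from lymphocytes, and IL-22 acts on epithelial receptors to induce antimicrobial proteins of the Reg3 family and related defence genes. Interferons induce further sets of epithelial genes, among them GTPases that attack intracellular pathogens and the antigen presentation machinery.

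The 9 libraries held 10638418 (WT mouse 73) to 18692093 (WT mouse 59) reads. The ribosomal precursor transcript Rn45s took 3.81 to 29.4% of them in KO and 0.130 to 25.4% in WT. KO mouse 100 (29.4%) and WT mouse 73 (25.4%) were highest, and the main results are also given without these 2 libraries. Reads on 1465 olfactory and vomeronasal receptor genes, which have no known role in this epithelium, amounted to 277 to 712 RPM (reads scaled to a common library total without Rn45s) in KO and 167 to 413 RPM in WT (exact two-sided permutation test, p = 0.0794, 0.275 after adjustment over 8 library measures). Between 17661 and 18808 genes reached 10 normalised reads in KO, against 16408 to 17892 in WT (exact permutation p = 0.0476, adjusted 0.275). The smallest p that 4 against 5 mice allow is 0.0159. Villin itself (Vil1) was abundant in every library, at 30810.1 to 80532 normalised reads in KO and 40547 to 67557 in WT. Ptprc, which encodes the CD45 used to exclude leukocytes, was read at 246 to 472 in KO and 227 to 344 in WT. A normalised read is a read divided by the size factor of its library.

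**Figure D1:**
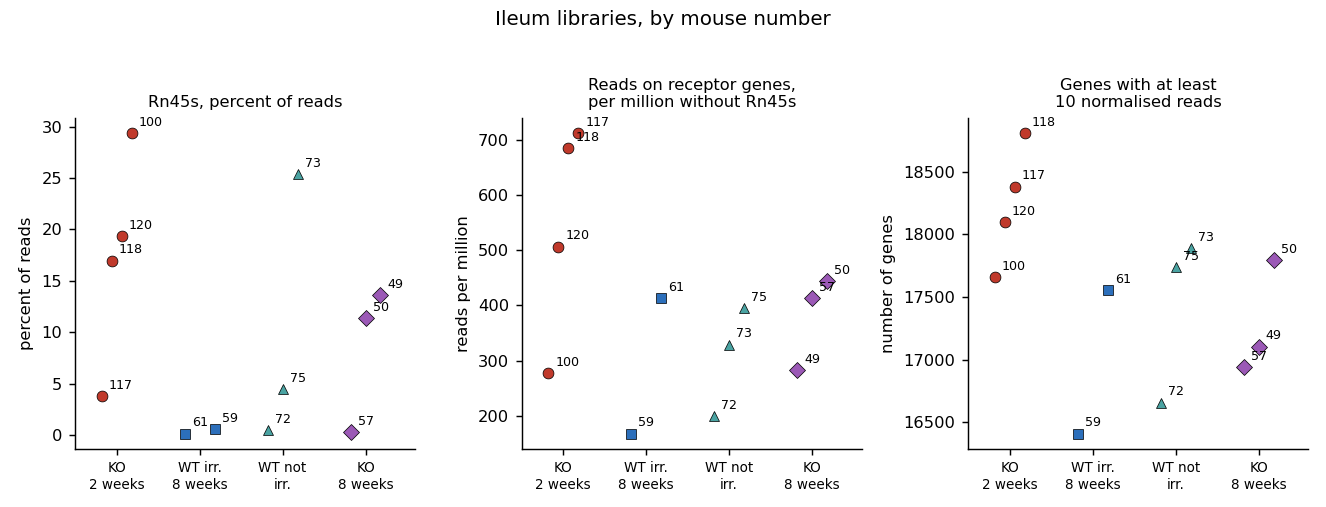
Library measures in the 12 ileum libraries by group, 1 point per mouse with its number: Rn45s as a percentage of reads, reads on olfactory and vomeronasal receptor genes in RPM without Rn45s, and the number of genes with at least 10 normalised reads; the value axes of the receptor and gene number panels do not start at 0. KO mice 117 and 118 have the highest receptor reads of all, KO mouse 100 lies among the WT mice in that measure, and KO mice 118, 117 and 120 have the most genes above the limit.

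One gene passed the test, and it was lower in KO. Gsta4, a glutathione transferase that detoxifies lipid peroxidation products such as 4-hydroxynonenal, stood at 84.2, 75.7, 67.5 and 64.7 normalised reads in KO mice 100, 117, 118 and 120. In WT it stood at 183 and 236 in irradiated mice 59 and 61 and at 204, 210.3 and 289 in non-irradiated mice 72, 73 and 75. Every KO value lay below every WT value, and both kinds of WT mice were alike high. Gsta4 fell from 224 ± 40.7 (SD, n = 5) to 73.0 ± 8.79 (SD, n = 4), by 1.60 on the log2(value + 1) scale with an SE of 0.20 (limma with Benjamini-Hochberg adjustment, adjusted p = 0.0382). This was 1 of 19010 genes, or 0.00526% of those tested, while 0 genes passed in the higher direction. Over the alternative settings its adjusted p ran from 7.86e-10 to 0.209 and it lost the call in 13 of 23, among them TMM scaling, edgeR, each WT group alone as control, and leaving out any one of mice 118, 120, 59, 61, 72, 73 or 75, with log2 differences between -1.68 and -1.46 throughout.

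The single call stands beside a broad field of genes just short of the threshold. At an unadjusted p under 0.05, 6022 genes differed (31.7%), 3547 of them higher (18.7%) and 2475 lower (13%) in KO. After adjustment the second gene, Defa21, reached 0.0661, and after it 1168 genes shared an adjusted p of 0.0960, so that 2250 genes (11.8%) lay under 0.10, 1246 higher (6.55%) and 1004 lower (5.28%). Without KO mouse 100 and WT mouse 73, limma called 3780 genes at 0.05 (2042 higher and 1738 lower). All of these had limma adjusted p-values between 0.0452 and 0.049996, just under the threshold. This fit was chosen after seeing the data, and leaving out mouse 100 or mouse 73 alone gave 2 and 0 calls. DESeq2 on the recovered reads called 2542 genes (1617 higher and 925 lower) and edgeR called 0, with 5487 at an unadjusted p under 0.05. With each library's receptor reads as a covariate limma called 986, 605 higher and 381 lower. Of these fits 2 are given beside the lists below, the one without mice 100 and 73 (10.8% of 18822 genes called higher and 9.23% lower) and the one with the receptor covariate (3.18% higher and 2.00% lower). DESeq2 counts are given for some lists only, with the interferon response. A gene that is described below as having no overlap had all 4 KO values on one side of all 5 WT values. This held for 898 genes in the higher direction (4.72%) and for 1175 in the lower direction (6.18%).

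Genes of low abundance and long genes had higher differences than others. Over all genes tested the median log2 difference was -0.03, but it was -0.20 over the 10736 genes that averaged 100 or more normalised reads and 0.54 over the 8274 genes below that level. Below zero were 9898 of all 19010 genes, 7572 of those 10736 and 2326 of those 8274. Genes spanning over 100 kb had a median of 0.36 (2474 genes), those of 10 to 100 kb -0.04 (11755 genes) and those under 10 kb -0.21 (4709 genes). Among genes averaging 100 or more normalised reads, the 1778 under 10 kb had a median of -0.35, with 13.0% above zero. The 2386 over 100 kb had a median of 0.32, with 68.9% above zero. Receptor reads were highest in KO mice 117, 118 and 120. With them as a covariate the overall median was 0.05. TMM scaling moved the overall median to 0.02 and centring each library on its expressed genes moved it to 0.10, and the split of genes at an unadjusted p under 0.05 then became 3401 higher and 1959 lower, and 4107 higher and 1306 lower. List medians below, and counts of members above or below zero, are to be read against these background medians and counts.

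Paneth cell genes had the lowest median of the lists examined, though 0 of them passed the test. Defa21 stood at 88.7, 226, 144 and 82.4 normalised reads in KO mice 100, 117, 118 and 120, at 603 and 873 in irradiated WT mice 59 and 61 and at 1376, 538 and 494 in non-irradiated WT mice 72, 73 and 75. The highest KO value lay below the lowest WT value, a log2 difference of -2.52 (SE 0.35, limma adjusted p = 0.0661). Defa21 encodes an alpha-defensin, a small cysteine-rich peptide that permeabilises bacterial membranes. For Lyz1, the lysozyme of Paneth granules, KO values were 1055, 3763, 2749 and 1439 and WT values were 8136 and 9720 in irradiated and 19821, 5343 and 5231 in non-irradiated mice (log2 difference -2.09, SE 0.43, adjusted p = 0.0960, limma). For both genes WT mouse 72 was highest, and WT mice 73 and 75 were the lowest of WT but above all KO mice. Of 18 tested Paneth genes, 0 passed the threshold in either direction, and the median was -1.56. With no overlap 9 were lower, against 6.18% of all genes. Below zero were 17, against 7572 of the 10736 genes averaging 100 or more normalised reads. Many members of the list are alpha-defensins, near-identical copies described below, so counts in this and the other fits are not of independent genes. Summed over the list, Paneth genes amounted to 249 to 949 RPM in KO at 2 weeks and 1111 to 3878 RPM in WT. Without KO mouse 100 and WT mouse 73, 0 of 18 were called higher and 10 lower (median -1.50), against 10.8% and 9.23% of all genes. With the receptor covariate limma called 0 higher and 7 lower (median -1.88), against 3.18% and 2.00%. In RNA from sorted tissue, fewer cells of a type and less RNA per cell cannot be told apart.

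Most other alpha-defensins were lower as well. Defa22 ranged over 71.0 to 244 in KO and 476 to 1554 in WT (log2 difference -2.40), Defa20 over 186 to 695 and 926 to 4175 (-2.17), and Defa24 over 393 to 791 and 1165 to 3043 (-1.78), each with a limma adjusted p of 0.0960. Of 11 tested rows of the family 2 held identical values. Of the 10 distinct ones 9 were below zero, with a median of -2.17, and 8 were lower with no overlap, against 6.18% of all genes. Alpha-defensin genes are near-identical copies, so reads may be divided among them arbitrarily and a single member's value is uncertain. The start-site sequences show how close the copies are. The 300-base windows of Defa21 and Defa22 in RefSeq (GRCm38.p6) were identical, as were those of Defa2 and Defa20, and the 2 pairs matched at 97.67% of positions. The 150 bases before the start sites of Defa21 (chr8:21025395-21025544, plus strand) and Defa20 (chr8:21509108-21509257, plus strand) are shown because members of this family had the lowest values, with the letters ATCAAAG in capitals. These are the reverse complement of CTTTGAT, the core to which TCF factors of the Wnt pathway bind.
Defa21: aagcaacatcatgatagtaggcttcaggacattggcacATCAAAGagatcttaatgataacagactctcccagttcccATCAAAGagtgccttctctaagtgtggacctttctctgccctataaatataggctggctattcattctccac
Defa20: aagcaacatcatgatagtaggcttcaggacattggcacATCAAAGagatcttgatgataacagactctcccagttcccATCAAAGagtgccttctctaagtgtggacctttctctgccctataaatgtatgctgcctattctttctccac
Each sequence holds the core at 112 and at 72 bases before the start site. CTTTGAT, searched on both strands, was present in 3.73% of 32851 windows of all genes and in the windows of all 4 tested Defa genes that could be matched, of 11. A match of letters is a description and says nothing on binding.

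**Figure D2:**
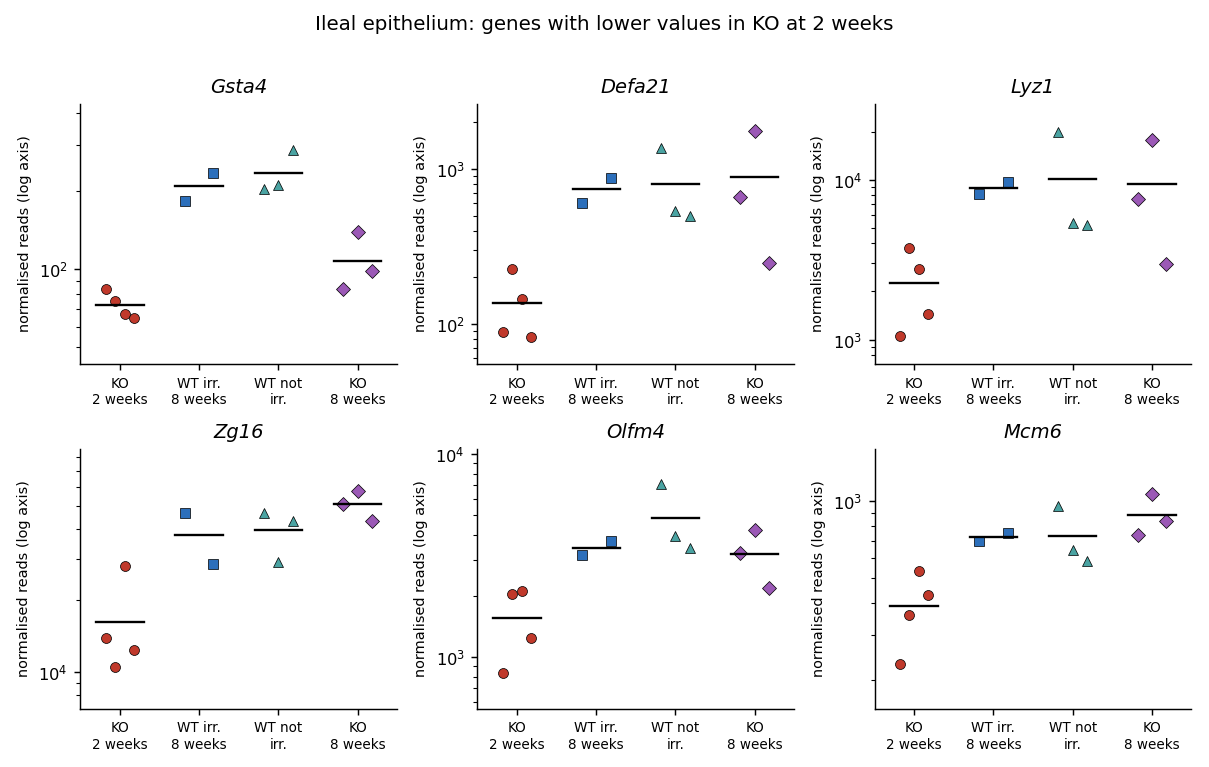
Normalised reads (log axis) of 6 genes in each ileum library, by group: KO at 2 weeks (4 mice), WT irradiated at 8 weeks (2), WT not irradiated (3) and KO at 8 weeks (3); points are mice and lines are group means. For each of the 6 genes all KO values at 2 weeks lie below all WT values, while KO mice at 8 weeks lie at or near the WT level for Zg16 and Mcm6, are spread widely for Defa21 and Lyz1, and stay below WT for Gsta4.

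Most goblet cell genes also had lower values in KO, with 0 past the threshold. Zg16 stood at 13857, 10523, 27876 and 12418 normalised reads in KO mice 100, 117, 118 and 120, at 46745 and 28526 in irradiated WT mice 59 and 61 and at 46841, 29146 and 43247 in non-irradiated WT mice 72, 73 and 75. Mouse 118 came closest to WT and the other 3 KO mice were well below it (log2 difference -1.34, SE 0.31, adjusted p = 0.0960, limma). Zg16 is a lectin of the mucus layer that binds Gram-positive bacteria. Klk1, a secreted serine protease, ranged over 140.1 to 192 in KO and 304 to 538 in WT (log2 difference -1.23), with no overlap. Tpsg1, a tryptase, ranged over 45.6 to 70.9 and 86.6 to 218 (-1.16), and Sytl2, which tethers secretory vesicles, over 816 to 1313 and 1314 to 2761 (-0.89), each with a limma adjusted p of 0.0960. Muc2, the main gel-forming mucin, overlapped between the groups, at 14555 to 37387 in KO and 29469 to 80007 in WT (-0.82, adjusted p = 0.140). Of 16 tested goblet genes 0 passed in either direction, 15 were below zero and 1 above, and the median was -0.88. With no overlap 6 were lower, against 6.18% of all genes, and 0 higher. The 1 member above zero had the largest difference of the list, 2.27, with an unadjusted limma p under 0.05. The IL-22 list described below had the same largest value. In the fit without mice 100 and 73, 0 of 16 were called higher and 8 lower (median -0.93), against 10.8% and 9.23% of all genes. The receptor covariate gave 2 higher and 2 lower (median -0.62), against 3.18% and 2.00%.

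The remaining secretory lineages showed smaller differences. Among enteroendocrine genes Chgb, a granin of hormone granules, ranged over 379.8 to 577 in KO and 708 to 2127 in WT (log2 difference -1.23, SE 0.27, adjusted p = 0.0960, limma), and Neurod1, a transcription factor of the lineage, over 17.7 to 38.3 and 39.7 to 56.9 (log2 difference -0.90). Those were the 2 of 18 tested genes with no overlap, against 6.18% of all genes in the lower direction. The list had a median of -0.39 with 0 called. Without mice 100 and 73, 0 of 18 were called higher and 5 lower (median -0.69), against 10.8% and 9.23% of all genes. The covariate gave 1 higher and 0 lower (median -0.25), against 3.18% and 2.00%. Tuft cell genes had a median of -0.22, with 0 of 10 called and 0 without overlap, and their median turned to 0.64 with the covariate and was -0.52 without mice 100 and 73. The covariate fit called 2 of the 10 higher and 0 lower, against 3.18% and 2.00%, and the fit without those mice called 0.

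Crypt base and proliferation genes mostly had lower values in KO, with 0 past the threshold. Olfm4 stood at 834, 2037, 2119.9 and 1239 normalised reads in KO mice 100, 117, 118 and 120, at 3182 and 3729.7 in irradiated WT mice 59 and 61 and at 7071, 3920.4 and 3444 in non-irradiated WT mice 72, 73 and 75. Olfm4 is a secreted glycoprotein of crypt stem cells, and its KO values did not reach the lowest WT value (log2 difference -1.49, SE 0.30, adjusted p = 0.0960, limma). Cdca7, a gene of dividing crypt cells, ranged over 95.3 to 219 in KO and 291 to 499.9 in WT (log2 difference -1.19), and the basolateral Na-K-Cl cotransporter Slc12a2 over 767 to 2061 and 2569.5 to 4142 (-1.08). Lgr5, the receptor that defines the stem cells, was nearer to WT, at 250.5 to 443 against 440.3 to 541 (-0.46, adjusted p = 0.124), and mouse 117 reached the WT range. Ly6a, the surface antigen Sca-1 that marks regenerating epithelium, went the other way, at 339, 124, 101 and 591 in KO and 68.1 and 89.0 in irradiated and 41.7, 53.7 and 27.7 in non-irradiated WT mice (log2 difference 2.09, SE 0.49, adjusted p = 0.0960, limma). Its KO values all lay above WT. Of 18 tested stem cell genes 0 passed, and the median was -0.48. With no overlap 8 were lower and 1 higher, against 6.18% and 4.72% of all genes. Leaving out mice 100 and 73, 1 of 18 were called higher and 5 lower (median -0.49), against 10.8% and 9.23% of all genes. The covariate gave 1 higher and 7 lower (median -0.51), against 3.18% and 2.00%.

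Of 25 cell cycle and DNA replication genes 24 were below zero, against 7572 of the 10736 genes averaging 100 or more normalised reads. The median of the list was -0.77. Mcm6, a subunit of the replicative helicase, stood at 230.5, 358, 534 and 430 in KO mice 100, 117, 118 and 120, at 696 and 748 in irradiated and at 955, 646 and 583 in non-irradiated WT mice (log2 difference -0.94, SE 0.24, adjusted p = 0.0960, limma). It was the 1 gene of the 25 without overlap, against 6.18% of all genes in the lower direction. Pcna, the sliding clamp of the polymerase, ranged over 144 to 204 and 200.2 to 396 (log2 difference -0.85), where KO mouse 100 reached the level of WT mouse 75, and Mki67, the proliferation antigen, over 1272 to 2062 and 1947 to 2980.3 (-0.57, adjusted p = 0.0998). 0 of the 25 were called in this fit, in which 0.00526% of genes were called lower. 21 had an unadjusted p under 0.05, against 13% of all genes in that direction. Without mice 100 and 73, 0 of 25 were called higher and 2 lower (median -0.59), no larger a share than the 9.23% of all genes called lower, and the covariate gave 0 higher and 4 lower (median -0.79), against 2.00% lower. Replication-dependent histones, whose transcripts are made in S phase, had a median of -1.10 over 11 genes, all below zero, and -0.12 with the receptor covariate. The linker histone Hist1h1b ranged over 129 to 399 in KO and 192 to 946 in WT (-1.26, adjusted p = 0.103), and WT mouse 75 was as low as KO. Histone genes are similar in sequence, so a single member's value is uncertain.

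Genes of the absorptive cells had differences on both sides of zero. Brush border genes had a median of 0.03 over 16 tested members, 8 above and 8 below zero, and the median was -0.38 without mice 100 and 73 and 0.63 with the receptor covariate. Without those mice 0 were called higher and 1 lower, and with the covariate 1 higher and 1 lower. One member of the list stood apart. Lct, the lactase of the brush border, was read at 2270, 3659, 2402 and 487 in KO mice 100, 117, 118 and 120, at 8821 and 4254 in irradiated and at 12942, 8985 and 13203 in non-irradiated WT mice (log2 difference -2.34, SE 0.51, adjusted p = 0.0960, limma), and irradiated mouse 61 was the WT mouse nearest to KO. Genes of lipid absorption and lipoproteins had a median of 0.00 (17 tested), and those of the ileal bile acid axis 0.11 (10 tested), with 0 called and 0 without overlap in either list. The lipid median turned positive under TMM scaling and centring, at 0.05 and 0.13. Without mice 100 and 73 the lipid and bile acid medians were -0.51 and -0.12, and with the covariate 0.54 and 0.60, so both medians took either sign. Without those mice 4 of 17 lipid genes were called lower and 0 higher, against 9.23% and 10.8% of all genes, and 0 of 10 bile acid genes were called. With the covariate 4 lipid and 2 bile acid genes were called higher and 0 lower, against 3.18% and 2.00%. Fabp6, the ileal bile acid binding protein, stood at 43599.9, 18498, 13164 and 12819.5 in KO and ranged over 14309.6 to 24560 in WT (-0.05, adjusted p = 0.926), so KO mice 118 and 120 lay below all WT mice, 117 below 4 of them and 100 far above all, and the sign of this value turned in 9 of 23 alternative fits, TMM scaling and centring included. Slc10a2, the apical bile acid transporter, ranged over 2744 to 5582 and 1868 to 4042 (0.50, adjusted p = 0.190), and Fgf15, the hormone that bile acids induce in ileum, over 216 to 1011 and 131 to 705 (0.78, adjusted p = 0.305).

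Among 8 genes of sugar uptake and handling the median was -0.69. Fbp1, an enzyme of gluconeogenesis, ranged over 62.6 to 111 in KO and 148 to 286 in WT with no overlap (log2 difference -1.28, SE 0.23, adjusted p = 0.0960, limma). The basolateral glucose transporter Slc2a2 was at 2117, 461, 329.5 and 559 in KO and 938 to 4128 in WT (log2 difference -1.50, adjusted p = 0.101). KO mouse 100 was within the WT range for this gene, and without it and WT mouse 73 the log2 difference was -2.31 (adjusted p = 0.0452), when 5 of 8 genes of the list were called lower (median -1.07), against 9.23% of all genes. With the receptor covariate the list's median turned to 0.08, with 2 of 8 called lower, against 2.00%.

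Gsta4 belongs to a list of xenobiotic and retinoid metabolism genes with a median of -0.57. Of its 25 genes 20 were below zero, against 7572 of the 10736 genes averaging 100 or more normalised reads. With no overlap 7 were lower, against 6.18% of all genes. Cyp3a11 stood at 419, 1418, 375 and 172 normalised reads in KO mice 100, 117, 118 and 120, at 1690.1 and 1734 in irradiated WT mice 59 and 61 and at 3116, 1784 and 2921 in non-irradiated WT mice 72, 73 and 75. KO mouse 117 was much nearer to WT than the other 3 (log2 difference -2.29, SE 0.46, adjusted p = 0.0960, limma). Cyp3a11 is a cytochrome P450 that oxidises drugs and bile acids, and its relative Cyp3a25 was likewise highest in mouse 117 among KO, at 574, 1776, 649.9 and 238 in KO and 1799.9 to 4500.4 in WT (log2 difference -2.04). Gstm3, another glutathione transferase, ranged over 42.3 to 158 and 236 to 400.5 (-1.97, adjusted p = 0.0960). The 2 KO mice with most Gstm3 were 100 and 117, and both stayed below WT. Members of the Gst and Cyp3a families are similar in sequence, so reads shared between copies are possible. Gsta4 was the 1 call of the 25, and without mice 100 and 73 0 of 25 were called higher and 14 lower (median -0.99), against 10.8% and 9.23% of all genes. The covariate gave 2 higher and 6 lower (median -0.46), against 3.18% and 2.00%, and the median was -0.36 without KO mouse 120. Nuclear genes of oxidative phosphorylation were all below zero (17 of 17, against 7572 of 10736 genes averaging 100 or more normalised reads). Their median was -0.31, against -0.20 over genes of that abundance and -0.35 over those of them spanning under 10 kb. This direction turned with the receptor covariate (median 0.30), while without mice 100 and 73 the median was -0.66 with 7 of 17 called lower, against 9.23%, and without KO mouse 117 it was -0.02. In that list Ndufa4, a subunit of the respiratory chain, had no overlap, with 628 to 771 in KO and 960.3 to 1588 in WT (-0.84).

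**Figure D3:**
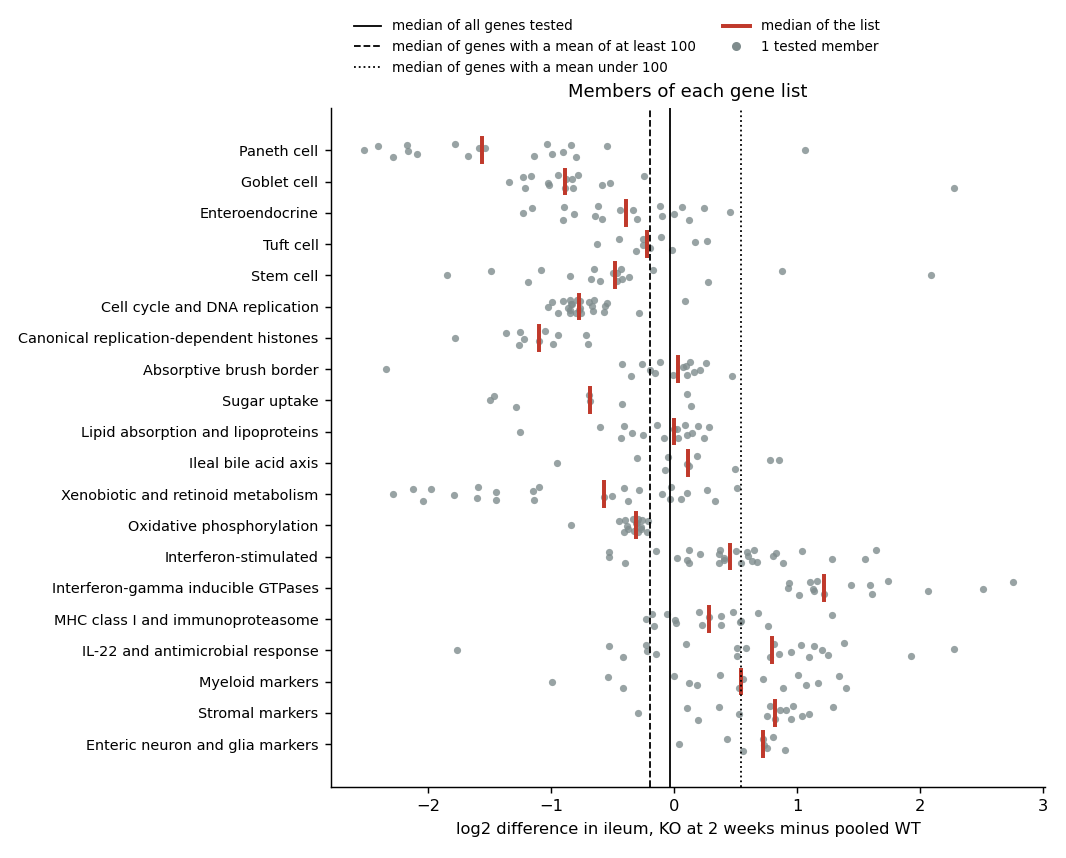
Log2 difference of KO at 2 weeks minus pooled WT for each tested member of 20 gene lists (grey points, spread vertically for display), with the list median (red bar) and the medians of all genes tested (solid line), of genes averaging 100 or more normalised reads (dashed) and of genes below that level (dotted). The Paneth median of -1.56 lies farthest to the left and that of the interferon-gamma inducible GTPases, at 1.22, farthest to the right, while brush border, lipid and bile acid medians are 0.03, 0.00 and 0.11.

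Genes of the interferon response had higher values in KO, with 0 past the threshold. Gbp8 stood at 1199, 808, 845 and 1340 normalised reads in KO mice 100, 117, 118 and 120, at 561 and 538 in irradiated WT mice 59 and 61 and at 281, 254 and 126 in non-irradiated WT mice 72, 73 and 75. Within WT the 2 irradiated mice were the highest, and KO exceeded both (log2 difference 1.74, SE 0.38, adjusted p = 0.0960, limma). Gbp8 belongs to the guanylate-binding proteins, which interferon-gamma induces and which assemble on intracellular pathogens. The immunity-related GTPase Iigp1 was at 509.9, 141, 156 and 890.2 in KO and at 83.1 and 158 in irradiated and 20.8, 50.7 and 35.1 in non-irradiated WT mice (log2 difference 2.51, SE 0.61, adjusted p = 0.0960, limma). KO mice 117 and 118 lay just below irradiated mouse 61 and above the other WT mice, while mice 100 and 120 were above every WT mouse. Above zero were 3164 of the 10736 genes averaging 100 or more normalised reads and 5948 of the 8274 genes below that level. All 15 tested GTPases of this kind were above zero, with a median of 1.22. 3 of them had no overlap, against 4.72% of all genes, and 0 passed the threshold (limma adjusted p 0.0960 to 0.155). Their summed level was 335 to 913 RPM in KO at 2 weeks and 130.4 to 358 RPM in WT, so the lowest KO and the highest WT libraries overlapped slightly. DESeq2 on the recovered reads called 13 of 15 higher, against 1617 of 19010 genes (8.51%). By edgeR, 0 genes were called on those reads. Among other lists, DESeq2 called 7 of 28 interferon-stimulated and 2 of 17 MHC class I genes higher. It called 10 of 18 Paneth genes lower, against 4.87% of all genes. Without mice 100 and 73 limma called 2 of 15 higher, close to the 10.8% of all genes, and with the receptor covariate 7 of 15, against 3.18%.

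Of 28 interferon-stimulated genes of the type I and III response 24 were above zero, against 9112 of all 19010 genes. The median was 0.45, and 3 were higher without overlap, against 4.72% of all genes. Leaving out mice 100 and 73, 3 of 28 were called higher and 1 lower (median 0.26), against 10.8% and 9.23% of all genes, and the covariate gave 10 higher and 0 lower (median 0.70), against 3.18% and 2.00%. Ifi44 stood at 268, 175, 101 and 179.5 normalised reads in KO mice 100, 117, 118 and 120, at 38.8 and 85.9 in irradiated WT mice 59 and 61 and at 42.5, 43.2 and 75.7 in non-irradiated WT mice 72, 73 and 75. Mouse 118 was nearest to WT and mouse 100 highest (log2 difference 1.64, SE 0.32, adjusted p = 0.0960, limma). Zbp1, a sensor of Z-form nucleic acids, ranged over 702 to 1685 in KO and 208 to 606 in WT (log2 difference 1.55), and Ifit2, which binds foreign RNA, over 146 to 315 and 56.7 to 199 (1.28), where irradiated mouse 61 overlapped with KO. Mx1, the remaining gene without overlap, was named after its values were seen and ranged over 324 to 446 and 218 to 299 (0.60, adjusted p = 0.0960). Genes of antigen presentation form a related list. Nlrc5, the transactivator of MHC class I genes, ranged over 704 to 1607 in KO and 217 to 745 in WT (1.28, adjusted p = 0.0960), and the class I heavy chain H2-K1 was at 20565, 6000, 8281 and 10199 in KO and 4438 to 7550.5 in WT (0.76, adjusted p = 0.126), with KO mouse 100 far above the other KO mice. The medians of the class I and class II lists were 0.28 and 0.21, and neither was stable: without mice 100 and 73 they were -0.12 and -0.07, with 0 called. With the receptor covariate they were 1.24 and 0.96, with 10 of 17 and 4 of 9 called higher, against 3.18% of all genes.

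Interferon-stimulated promoters carry a short element, the interferon-stimulated response element, bound by complexes of STAT and IRF factors. Its core, searched on both strands as GAAA, any 2 bases and GAAA, was present in 3.44% of the 32851 windows (250 bases before to 50 after each start site). It was found in 10 of the 18 interferon-stimulated genes and in 9 of the 9 GTPases that could be matched. Rsad2, an antiviral gene that differed between the tissues as given below, is shown as an example, with the 150 bases before its start site (chr12:26456453-26456602, minus strand) and the core in capitals, in its reverse complement.
Rsad2: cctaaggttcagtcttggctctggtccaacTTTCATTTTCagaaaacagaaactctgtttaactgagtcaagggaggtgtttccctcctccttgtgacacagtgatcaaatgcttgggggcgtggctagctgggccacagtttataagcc
The match lies 120 bases before the start site. 0 such cores were found in the windows of the 4 matched Defa genes, which says only that these letters are not in those windows.

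**Figure D4:**
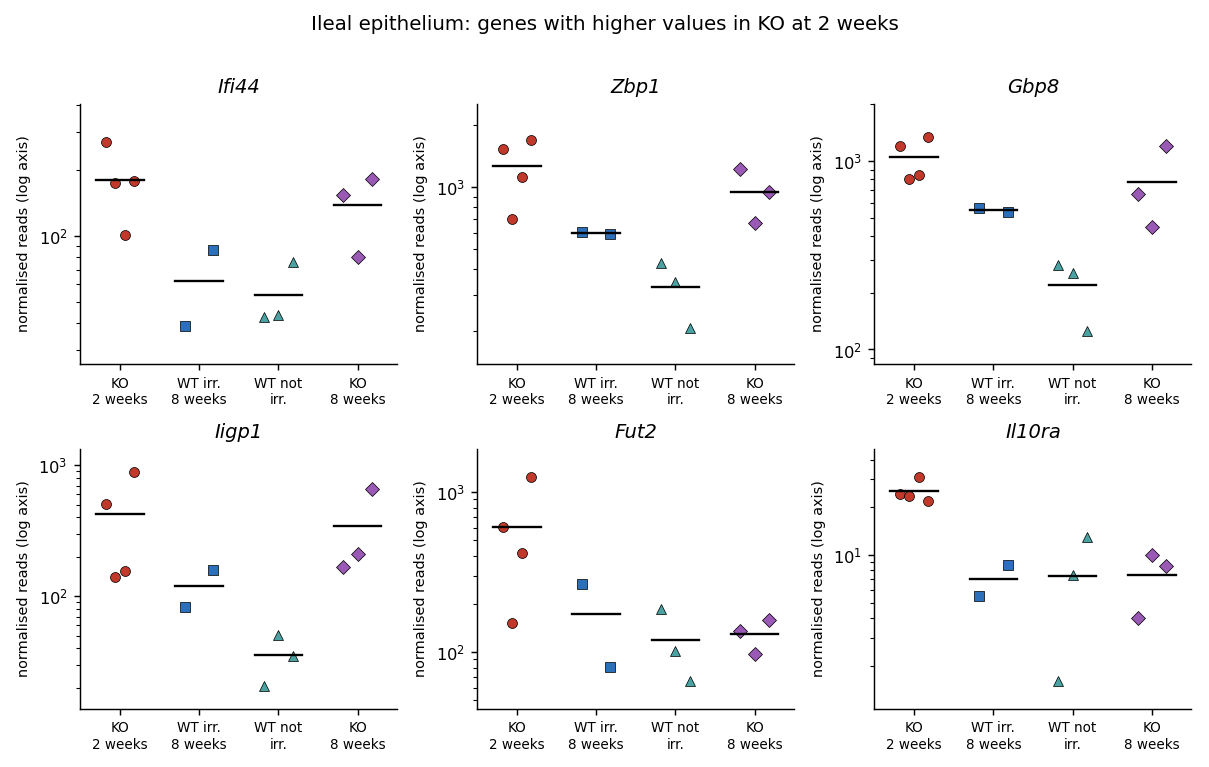
Normalised reads (log axis) of 6 genes in each ileum library, by group as labelled, with points for mice and lines for group means. KO at 2 weeks lies above all WT mice for Ifi44, Zbp1, Gbp8 and Il10ra, and overlaps with WT for Iigp1 and Fut2, while KO at 8 weeks overlaps with KO at 2 weeks for Ifi44 and lies at the WT level for Fut2 and Il10ra.

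The lectins that IL-22 induces were abundant in WT ileum as well as in KO. Reg3b stood at 210203, 121230, 214118 and 288262 normalised reads in KO mice 100, 117, 118 and 120, at 203994 and 152385 in irradiated WT mice 59 and 61 and at 105409, 54467 and 90888 in non-irradiated WT mice 72, 73 and 75. Reg3b and Reg3g are antibacterial lectins secreted into the mucus and classical IL-22 targets. KO mouse 117 lay within the WT range for Reg3b and the non-irradiated WT mice were lowest (log2 difference 0.85, SE 0.45, adjusted p = 0.198, limma). Reg3g ranged over 47254 to 153672 in KO and 24067 to 102594 in WT (log2 difference 0.81, adjusted p = 0.228). Clca4b, a member of the calcium-activated chloride channel regulator family, was at 49922, 22360.4, 31702 and 36434 in KO and 20342 to 40320 in WT (0.09, adjusted p = 0.840), and this small difference was negative in 4 of 23 alternative fits. Nos2, the inducible nitric oxide synthase, ranged over 4282 to 13976 and 4706 to 9710.5 (0.51, adjusted p = 0.299).

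Larger differences in this list came with a wide spread in KO. Fut2, the fucosyltransferase that decorates the epithelium with fucose under IL-22, was at 601, 152, 418 and 1243 in KO and at 267 and 81.2 in irradiated and 187, 101 and 66.4 in non-irradiated WT mice (log2 difference 1.93, SE 0.54, adjusted p = 0.0960, limma). Mouse 117 lay within WT and mouse 120 far above. Duox2, the dual oxidase that releases hydrogen peroxide, ranged over 10205 to 37384 in KO and 3392 to 14567 in WT (log2 difference 1.25, adjusted p = 0.108). The acute-phase genes Saa1 and Saa3 ranged over 433 to 3084 and 9.1 to 43.8 in KO and over 287 to 1449 and 4.7 to 10.4 in WT, with log2 differences of 1.14 and 1.10. Reg4, an exception, was lower, at 36.5 to 153 against 143 to 645 (-1.76, adjusted p = 0.0960). Steap4, a metalloreductase, ranged over 28.8 to 50.4 and 13.5 to 37.8 (0.77), Socs3, the feedback inhibitor of STAT3, over 142 to 1270.2 and 224 to 1073 (0.58), and Lcn2, the siderophore-binding lipocalin, over 0 to 19.8 and 0 to 4.5 (0.95), near the limit of detection. Of 22 tested members 0 passed in either direction and 0 were without overlap, and the median was 0.79 (0.48 without KO mouse 120 and 0.45 with irradiated WT only). Log2 differences in the list ran from -1.76 to 2.27, with 16 above and 6 below zero. The highest value, 2.27, was also the highest of the goblet list. Without mice 100 and 73, 1 of 22 were called higher and 2 lower (median 0.57), no larger a share than the 10.8% and 9.23% of all genes. With the covariate 5 were called higher and 1 lower (median 0.91), against 3.18% and 2.00%.

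Of the receptor genes 0 passed the test. Il22ra1 ranged over 2800 to 4305 in KO and 3062 to 4301 in WT (log2 difference -0.23, adjusted p = 0.392), and Il10rb, the chain that the IL-10 and IL-22 receptors share, over 759 to 1505 and 871 to 1247 (-0.23, adjusted p = 0.459). Il10ra stood at 24.4, 23.6, 31.2 and 21.9 normalised reads in KO mice 100, 117, 118 and 120, at 5.5 and 8.6 in irradiated WT mice 59 and 61 and at 1.6, 7.5 and 12.9 in non-irradiated WT mice 72, 73 and 75. All 4 KO mice were above all WT mice (log2 difference 1.86, SE 0.45, adjusted p = 0.0960, limma). Il10ra encodes the ligand-binding chain of the IL-10 receptor and its value in epithelium of the host would not check the KO label. At this low level the values correspond to few reads, and 5948 of the 8274 genes averaging under 100 normalised reads were above zero.

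Markers of other cells had positive medians, as genes of low abundance did. Myeloid markers had a median of 0.54 over 16 tested genes, with 0 called and 2 higher without overlap, against 4.72% of all genes. 12 were above and 4 below zero, the lowest at -0.99. At an unadjusted limma p under 0.05, 6 were higher and 1 lower, against 18.7% and 13% of all genes. The summed level of myeloid markers was 43.1 to 96.3 RPM in KO at 2 weeks and 43.6 to 71.7 RPM in WT. Mrc1, the macrophage mannose receptor, was at 219.5, 227, 289 and 198 in KO and 91.3 to 136 in WT (log2 difference 1.00, SE 0.19, adjusted p = 0.0960, limma), and Itgax, the integrin CD11c, ranged over 35.5 to 52.1 and 12.8 to 25.4 (log2 difference 1.16). Stromal markers had a median of 0.82 and a summed level of 41.1 to 93.8 RPM in KO at 2 weeks and 31.1 to 73.6 RPM in WT; Myh11, the smooth muscle myosin, ranged over 146 to 229.7 and 67.3 to 116 (0.97). Endothelial markers had a median of 0.69 (39.7 to 117 RPM in KO at 2 weeks and 30.6 to 69.8 RPM in WT), and enteric neuron and glia markers 0.72 (23.7 to 55.1 RPM in KO at 2 weeks and 19.7 to 26.4 RPM in WT), with Elavl4 at 170.1 to 250 against 80.9 to 151 (0.90). For T and NK cells the median was 0.44 (52.0 to 91.0 RPM in KO at 2 weeks and 40.6 to 68.6 RPM in WT), and for B and plasma cells 0.27 (7.64 to 21.2 RPM in KO at 2 weeks and 7.26 to 14.5 RPM in WT). In these 6 lists 0 of 68 tested markers were called and 0 of all listed markers in the table were at 0 in every library. Leaving out mice 100 and 73, 18 markers were called higher and 0 lower, 7 of 15 stromal (median 1.13), 4 of 14 myeloid (1.00), 3 of 10 endothelial, 3 of 8 neuron and glia, 1 of 13 T and NK and 0 of 6 B and plasma cell markers, against 10.8% of all genes. With the receptor covariate the medians were 0.24 for stromal, 0.12 for endothelial, 0.37 for neuron and glia, 0.33 for myeloid, 0.10 for T and NK and -0.08 for B and plasma cell markers. That fit called 1 marker higher and 1 lower, against 3.18% and 2.00% of all genes. The part of these cells in the results on epithelial genes was not tested.

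Beside the lists, the genes with the smallest p and no overlap were taken in each direction. On the lower side these were, after Gsta4, the defensins and Klk1, Pdcd4, an inhibitor of translation initiation (450 to 665 in KO and 991 to 1372 in WT, log2 difference -1.06), Serpina1b, an alpha-1-antitrypsin (17.7 to 28.5 and 49.9 to 151, -1.88), and Zscan26, a zinc finger protein (269 to 312 and 454 to 580, -0.85). On the higher side, Setbp1, a nuclear protein that binds SET, stood at 1035, 1521, 1518 and 1199 in KO and 567 to 834 in WT (log2 difference 1.00, SE 0.18, adjusted p = 0.0960, limma). Kirrel3, an adhesion molecule, ranged over 1532 to 3711 and 652 to 1092 (1.26), and the collagen prolyl hydroxylase subunit P4ha1 over 275 to 514 and 109 to 221 (1.29). The amino acid transporter Slc6a18 ranged over 148 to 187 and 53.5 to 99.9 (1.18), the dynein heavy chain Dnah10 over 204 to 277 and 76.9 to 143 (1.04) and the kinase Stk32c over 277 to 370.2 and 147 to 219 (0.85). Each of these genes other than Gsta4 and Defa21 had an adjusted p of 0.0960 and did not pass. With the receptor covariate the log2 differences were 0.71 for Setbp1, 0.99 for Kirrel3 and 0.78 for Dnah10. They were 1.80 for P4ha1, 1.31 for Slc6a18 and 0.93 for Stk32c. Genes spanning over 100 kb had higher differences as a class, and the part of gene span in these values was not tested. Immediate early genes, which respond to cell isolation, were all below zero (median -0.52 over 15, but 0.00 with the receptor covariate), with Nr4a1, an orphan nuclear receptor, at 17.7 to 39.3 in KO and 36.9 to 206 in WT (-1.55, adjusted p = 0.0960). Chemokines and p53 targets had medians of -0.19 and -0.34, which were -0.43 and -0.29 without mice 100 and 73 and -0.16 and -0.12 with the covariate.

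The pooled WT group joined mice with and without irradiation. Between irradiated and non-irradiated WT ileum, limma called 0 of 19122 genes, with 187 (0.978%) at an unadjusted p under 0.05. A group of 2 against 3 mice gives little power, and some genes of interest leaned one way, as with Gbp8 (irradiated minus non-irradiated 1.40, adjusted p = 1.000) and Reg3g (1.27, adjusted p = 1.000).

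Against KO mice at 8 weeks (5007 genes or 26.2% at an unadjusted p under 0.05), with the same KO libraries of 2 weeks on one side, limma called 210 of 19122 genes (1.1%), 27 higher (0.141%) and 183 lower (0.957%) at 2 weeks, with adjusted p-values between 0.0471 and 0.0496. Some secretory and proliferation genes stood among the lower ones. Called lower were 1 of 18 Paneth, 3 of 16 goblet and 0 of 18 enteroendocrine genes, against 0.957% of all genes. Of the stem cell and cell cycle lists 1 of 18 and 2 of 25 were called lower. Zg16 fell from 50703 ± 7397 (SD, n = 3) at 8 weeks to 16168 ± 7923 (SD, n = 4) at 2 weeks, with 8-week values of 51073, 57908 and 43128 (log2 difference -1.75, SE 0.33, limma adjusted p = 0.0471). Sytl2 (-1.51) and Atoh1, the master regulator of secretory fate (-1.30), were also lower. Defa21 was lower (-2.39) although its 8-week values spread widely, at 657, 1754 and 246. Cdca7 (-1.22), Mcm6 (-1.23), Pcna (-1.07) and Pdcd4 (-1.32) were lower too, as were the matrix glycoprotein Thbs1 (-2.64) and the growth factor Areg (-1.95), whose 8-week values of 973, 1013 and 1067 exceeded those of all other ileum libraries compared. Setbp1 (1.15), Kirrel3 (1.34) and Mx1 (1.05) were higher at 2 weeks. These calls rest on the threshold: 0 genes were called when any one of the 7 mice was left out, under TMM scaling, under centring or without a filter.

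Gsta4 and the interferon GTPases were not called between the 2 times. Gsta4 stood at 84.1, 139.5 and 98.8 in KO at 8 weeks (2 minus 8 weeks -0.53, adjusted p = 0.170), and Gbp8 at 666, 448 and 1201 (0.53, adjusted p = 0.445). Set beside each other, the GTPase list had a median of 1.22 at 2 weeks and 1.21 at 8 weeks over the same WT mice, the Paneth list -1.56 and -0.22, the goblet list -0.88 and 0.15, the cell cycle list -0.77 and 0.23, and the xenobiotic list -0.57 and -0.50. KO at 8 weeks against the same WT mice gave 0 calls, with 540 genes (2.82%) at an unadjusted p under 0.05.

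Colon of the same 9 mice was set against ileum. The test of ileum minus colon, over 18 libraries, called 116 of 19379 genes (0.599%), 59 with a higher (0.304%) and 57 with a lower (0.294%) difference in ileum. Colon and ileum libraries of a mouse were treated as independent in this fit, which gave the tissue p-values below unless the replicate block is named. In colon alone this fit called 555 genes (2.86%), 202 higher (1.04%) and 353 lower (1.82%) in KO. With the mouse as replicate block, since colon and ileum came from the same animals, it called 1231 (408 higher and 823 lower). The split moved to 48 higher and 78 lower under TMM scaling and to 79 and 52 under centring. Leaving out any mouse but 75 moved the count by over 1.5 times, within a range of 25 to 201. Clca4b showed the largest tissue difference among the genes described, at 44673 ± 29176 in KO and 298 ± 46.0 in WT colon, against 35105 ± 11479 and 32349 ± 7358 in ileum (SD, n = 4 and 5). The ileum minus colon difference was -6.90 (SE 0.48, limma adjusted p = 9.49e-08). WT ileum held about as much Clca4b as KO ileum, and WT colon held little. For Reg3b the colon means were 68453 ± 45608 in KO and 1389 ± 1244 in WT, a tissue difference of -4.78 (adjusted p = 0.00492), and for Reg3g it was -4.59. Nos2 (-3.30), Steap4 (-2.48) and the carboxylesterase Ces2f (-4.40) were of the same kind, and of these genes Reg3g lost the call in 1 and Steap4 in 4 of 16 settings. The IL-22 list had a median of 2.30 in colon, with 14 of 24 called higher, against 1.04% of all genes.

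Interferon-stimulated genes differed in the opposite sense. Rsad2 was at 516 ± 264 in KO and 2116 ± 720.2 in WT colon, and at 345 ± 99.7 and 261 ± 31.6 in ileum (SD, n = 4 and 5), an ileum minus colon difference of 2.47 (SE 0.40, limma adjusted p = 0.00689). The tissue difference was also called for Ifi44 (2.55), Oas2 (2.44), Ifit1 (2.07) and Mx2 (1.79), which makes 5 of 28 in the list, against 0.304% of all genes. Of these calls Oas2 and Mx2 were each lost in 6 of 16 alternative settings and Ifit1 in 3. In colon Rsad2 fell by 2.10, Oas2 by 1.56, Ifit1 by 1.66 and Mx2 by 1.20 on the log2 scale (limma adjusted p 2.92e-04 to 0.0208), while Ifi44 was not called (-0.91, adjusted p = 0.109). The serine protease Prss23 (3.27) and Kirrel3 (2.01) had higher differences in ileum as well, lost in 1 and 3 of 16 settings. For Gsta4 the colon means were 218 ± 94.7 in KO and 208 ± 49.8 in WT, and the tissue difference was -1.59 (adjusted p = 0.0487, lost in 11 of 16 alternative settings). The calls of Clca4b, Reg3b, Ces2f, Nos2, Rsad2 and Ifi44 held in all 16. Cdca7 (-1.54), Ndufa4 (-1.27) and Serpina1b (-2.66) were likewise lower in KO ileum relative to colon, but these calls were lost in 9, 6 and 10 of 16 settings. The difference was not called for Zg16 (-0.49, adjusted p = 0.737). For Defa21 (-3.33) the adjusted p was 0.0719 in this fit and 0.00222 with the mouse as replicate block, where it passed. Defa21 ranged over 0.7 to 12.4 in KO colon and 0 to 5.1 in WT colon.

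**Figure D5:**
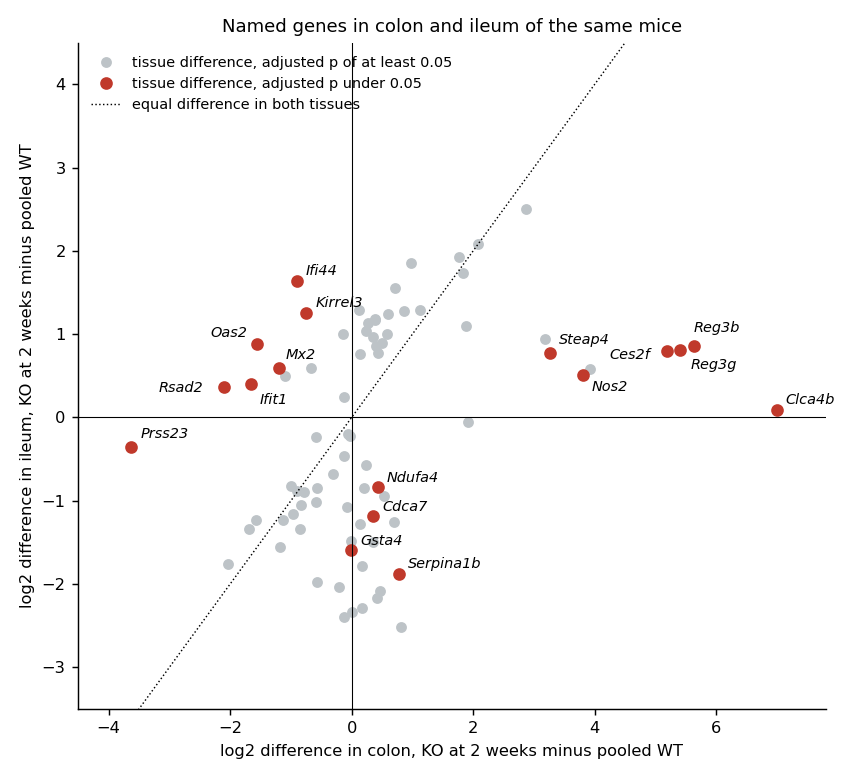
Log2 difference of KO at 2 weeks minus pooled WT in colon (horizontal axis) and ileum (vertical axis) for the genes named in the text, from 1 fit over 18 libraries; red points have a limma adjusted p under 0.05 for the tissue difference, and the dotted line marks equal differences. Clca4b, Reg3b, Reg3g, Ces2f, Nos2 and Steap4 lie far to the right, with ileum differences under 1, and Rsad2, Oas2, Ifit1, Mx2, Ifi44 and Kirrel3 lie at the upper left.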

How the data were processed

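RNA was measured in 24 libraries of sorted epithelium, and 9 ileum libraries were compared here. The labels' protocols name a kit for total RNA that keeps strand and removes ribosomal RNA, while the molecule label says polyA RNA. HISAT 0.1.6, HOMER, bcl2fastq and the build mm9 are listed, with no order or role, per the submitters' processing notes. Use of strand and the annotation: not given in the sources used here. Values of overlapping genes are uncertain. The authors deposited a signal per gene and library, equal to its reads over a library size factor and rounded to 1 decimal. In each library low values were whole multiples of 1 step (0.781 to 2.22) for 100% of values within 0.05, which recovers reads (10638418 to 18692093 per library in these 9), and counting error is largest near the filter. The reference at hand is another build (GRCm38), used for start-site windows from RefSeq and for gene spans, matched by symbol for 99.6% of tested genes.

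Genes reaching 10 normalised reads in 2 or more libraries entered the test on log2(value + 1), so fold changes of low genes are understated, with limma 3.58.1 in R 4.3.3 (trend) and Benjamini-Hochberg adjustment over all genes, called under 0.05. KO at 8 weeks was compared over 12 ileum libraries, and tissues over 18 libraries. Library measures had exact permutation tests. Genes were named from those called or, where fewer than 5 were called in a direction, the 8 with the smallest p, no overlap and a mean of 5 RPM or more; members of each list among its 4 smallest p; preset genes; and, in other comparisons, the 5 largest in each direction and the first group again. Sytl2, Atoh1, Cdca7, Mcm6, Pcna, Mx1 and Gbp8 against KO at 8 weeks, and Nos2, Steap4, Ifit1, Oas2, Mx2, Cdca7, Ndufa4 and Zg16 between tissues, were named after their values were seen. Members and lists were chosen with earlier results of these data known. Same-numbered colon and ileum libraries came from 1 mouse. Their deviations from group means correlated at -0.14 to 0.64 across genes, highest with the own number in 6 of 9 mice. No 2 of the 9 libraries agreed within sampling noise (chi-square per gene at least 17.2). Alternatives were other controls, pseudocounts of 0.5 and 8, filters, TMM, centring, edgeR 4.0.16, DESeq2 1.42.0, a covariate and leaving out each mouse. Leaving out 2 libraries rich in Rn45s and a threshold of 0.10 were chosen after seeing the data. The limma fit was also run on simulated counts with known changes. Those counts held no differences in Rn45s or receptor reads between libraries, so that run does not bear on the shifts in calls given here.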

Additional observations from a re-analysis of the deposited data

Results flagged for a closer look

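Of 150 groups checked (4 KO or 5 WT mice, for the genes named in ileum and 6 library measures), 8 had 1 mouse far from the rest, and about 5 in 100 are expected by chance. KO mouse 117 was high for Defa24, at 791 normalised reads against 393 to 423 in the other KO mice. It was low for Tpsg1, at 45.6 against 67.8 to 70.9, and for Nos2, at 4282 against 11971 to 13976. KO mouse 100 was high for Il22ra1, at 4305 against 2800 to 2907. WT mouse 72 was high for Olfm4, at 7071 against 3182 to 3920.4 in the other WT mice, and low for Kirrel3, at 652 against 950 to 1092, and for Dnah10, at 76.9 against 124 to 143. In WT mouse 73 Rn45s took 25.4% of reads, against 0.130 to 4.46%.

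Between KO at 2 and at 8 weeks in ileum, the limma difference (log2, 2 minus 8 weeks) passed for Defa21 (-2.39), Zg16 (-1.75), Sytl2 (-1.51), Atoh1 (-1.30), Cdca7 (-1.22), Mcm6 (-1.23), Pcna (-1.07), Pdcd4 (-1.32), Thbs1 (-2.64), Areg (-1.95), Mx1 (1.05), Kirrel3 (1.34) and Setbp1 (1.15). Between ileum and colon, the limma difference of differences (log2, ileum minus colon) passed for Clca4b (-6.90), Reg3b (-4.78), Reg3g (-4.59), Ces2f (-4.40), Nos2 (-3.30), Steap4 (-2.48), Serpina1b (-2.66), Gsta4 (-1.59), Cdca7 (-1.54), Ndufa4 (-1.27), Prss23 (3.27), Ifi44 (2.55), Rsad2 (2.47), Oas2 (2.44), Ifit1 (2.07), Kirrel3 (2.01) and Mx2 (1.79).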

How the results depend on the processing

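For KO at 2 weeks against pooled WT (1 gene called), the count was 0 with irradiated WT only, 0 with non-irradiated WT only, 0 with both WT groups weighted equally, 0 under TMM scaling, 0 under median centring and 0 with edgeR. It was 2542 with DESeq2, 986 with receptor reads as a covariate, 3780 without KO mouse 100 and WT mouse 73, and 2250 at a threshold of 0.10; the last 2 were chosen after seeing the data. Leaving out 1 mouse gave 0 to 10 genes, with 2 without KO mouse 100 and 10 without KO mouse 117. It stayed at 1 with pseudocounts of 0.5 and 8, with either other filter and with all 12 libraries fitted. Against KO at 8 weeks (210 called) the count was 323 with a pseudocount of 8, 553 with the filter of 50 in 4 libraries, 321 with edgeR, and 0 without a filter, under TMM scaling, under median centring and in each fit that left out 1 mouse (0 to 0). For ileum minus colon (116 called) the replicate block gave 1231, leaving out 1 mouse gave 25 to 201, and the other settings gave 102 to 139. The B cell list had 0 members left under the filter of 50 in 4 libraries. Irradiated against non-irradiated WT gave 0 genes in every fit. The cause of these shifts was not tested.

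Of 1579 values of 69 named genes in ileum under these alternatives, 17 changed sign, in 6 genes. Fabp6 was 0.0633 with non-irradiated WT only, 0.00437 under TMM, 0.0803 under centring, 0.17 with edgeR, 0.15 with DESeq2, 0.55 with the covariate, and 0.0231 to 0.14 (0.13 without mouse 118) in the 3 fits without mouse 61, 118 or 120, within a range of -0.45 (without mouse 100) to 0.14 when 1 mouse was left out. Clca4b was -0.00792 with irradiated WT only, -0.0947 without mouse 100, -0.0641 without mouse 73 and -0.25 without both, within -0.0947 to 0.29 when 1 mouse was left out. With the covariate, Vil1 was 0.43, Il22ra1 0.11, Il10rb 0.20 and Lcn2 -0.33 (reported at 0.95, with a range of -0.33 to 2.01). Of 27 list medians 18 kept their sign in every fit, those of the Paneth, goblet, stem cell, cell cycle, xenobiotic, interferon and IL-22 lists among them. The receptor level in RPM differed by 244 between KO and WT means, and by 184 with Rn45s kept in the total.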
